A study of Mus musculus with 10 samples.

Results

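The creatine kinase and adenylate kinase systems of skeletal muscle were followed through 10 listed genes: the creatine kinases Ckm, Ckb, Ckmt1 and Ckmt2, adenylate kinase Ak1, the AMP deaminases Ampd1 and Ampd3, the creatine synthesis enzymes Gatm and Gamt, and the creatine transporter Slc6a8. A probe set was taken when the array's annotation gave it 1 gene and that gene was on the list. This found 15 of the 12488 probe sets on the array and 9 of the 10 genes; no probe set was annotated to Ampd1. Of the 15 probe sets, 11 were bright enough to be tested, and these covered all 9 genes.

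The samples were gastrocnemius muscle, the large calf muscle, of male mice aged 16 weeks, with 5 arrays of normal mice (control) and 5 of mdx mice, which carry a germline nonsense mutation in the dystrophin gene Dmd. The labels give no genetic background for either group, no treatment, and no statement that each array is a separate animal, so the p-values cover the spread among the 10 samples, part of which may be technical. Dmd had a mean intensity of 796.7 in control and 188.4 in mdx. All 10 fast fibre markers passed the detection filter.

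Contracting muscle spends ATP faster than mitochondria can supply it. Creatine kinase moves phosphate between ATP and creatine, with a cytosolic form at the myofibrils and a mitochondrial form where ATP is made, so that phosphocreatine serves as a reserve and a shuttle. Adenylate kinase makes ATP and AMP from ADP, and AMP deaminase removes the AMP as part of the purine nucleotide cycle. Creatine itself is made by Gatm and then Gamt, mainly in kidney, pancreas and liver, and muscle takes it up through Slc6a8.

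In mdx muscle the main creatine kinases and adenylate kinase of the adult fibre were lower on the deposited scale, and both enzymes of creatine synthesis were higher. By the brightest probe set of each gene, 3 of the 9 genes were called higher (Gatm, Gamt and Ampd3), 3 lower (Ckm, Ckmt2 and Ak1) and 3 not called (Ckb, Ckmt1 and Slc6a8). A call is an adjusted p below 0.05 by limma, with Benjamini-Hochberg adjustment over all 7612 tested probe sets. Of all tested genes, 16.1% were called higher and 18.6% lower (34.7% in all). Of the 11 tested probe sets of the members 4 were called higher and 4 lower, beside 15.8% and 17.8% of all tested probe sets (33.6% in all). With 9 genes chosen knowing earlier results, the counts are given as a description beside those shares. In these whole-muscle samples fewer fibres and less RNA per fibre cannot be told apart. The split of calls also depends on the scaling. Of all calls, 47.1% were higher in mdx as deposited, 94.8% after scaling to the hybridization controls and 96.2% after scaling to the fast fibre markers, which moved the median probe set by 0.32 and 0.35 on the log2 scale.

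**Figure D1:**
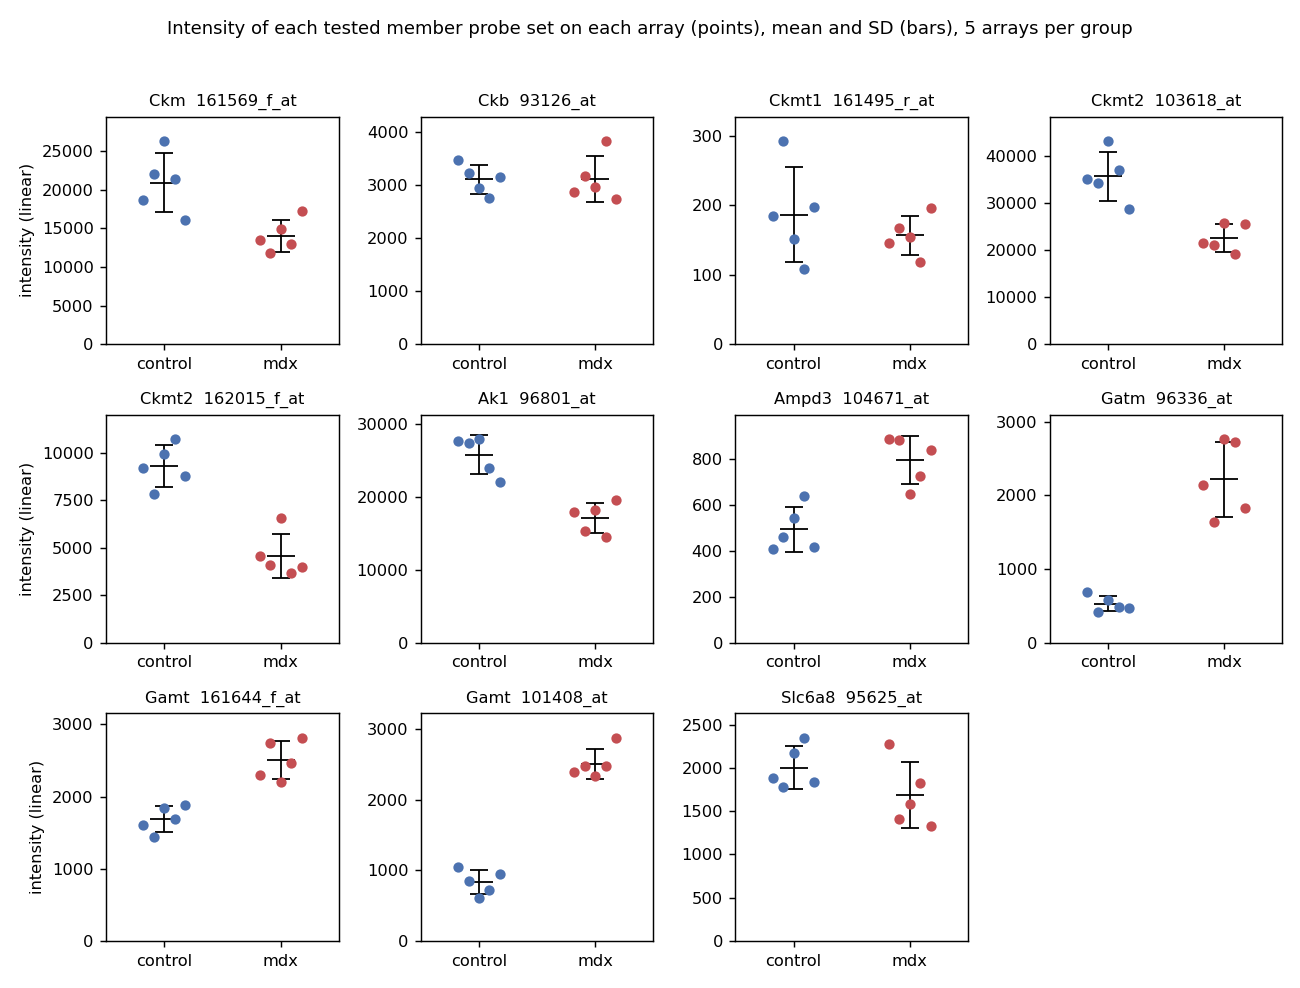
Intensity of the 11 tested probe sets on each array, on linear axes that start at 0, with control in blue and mdx in red; horizontal marks and bars are the mean and SD of 5 arrays. The groups do not overlap for either probe set of Ckmt2 and of Gamt, nor for Ak1, Ampd3 and Gatm, while those of Ckm, Ckb, Ckmt1 and Slc6a8 overlap.

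The cytosolic creatine kinase of adult fibres, Ckm, gave intensities of 18637, 22064, 26292, 21420 and 16090 on control replicates 1 to 5. On mdx replicates 1 to 5 they were 13489, 11793, 14896, 12943 and 17183. The groups overlapped where mdx replicate 5, the highest of its group, exceeded control replicate 5, the lowest of its own. The mean fell from 20901 ± 3839 to 14061 ± 2072 (SD, n = 5), to 0.673 of control. The log2 change, taken throughout as mdx minus control of log2(intensity + 372.4), was -0.55 (SE 0.13, limma adjusted p = 0.00603). It was -0.28 after quantile normalization (adjusted p = 0.0445), -0.03 with scaling to the hybridization controls and turned to 0.02 with scaling to fast fibre markers (adjusted p = 0.909 and 0.911). Scaling to either reference also raises the median of all tested probe sets, against which Ckm stood at -0.31 and -0.29. These values come from probe set 161569_f_at, whose suffix marks probes that may match related sequences. The other Ckm probe set, 160175_at, was dim on both groups, at 101.7 ± 45.2 and 159.0 ± 72.4, and was not tested.

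Ckmt2, the sarcomeric mitochondrial creatine kinase that faces the ATP exporter of the inner membrane, was lower by both of its bright probe sets. Probe set 103618_at read 35238, 34334, 43253, 37025 and 28765 in control. In mdx it read 21600, 21119, 25699, 19129 and 25540, all below every control array. The mean fell to 0.633 of control, a log2 change of -0.65 (SE 0.12, adjusted p = 0.000892). Probe set 162015_f_at fell further, from 9304.9 ± 1107.4 to 4574.6 ± 1156.0, a log2 change of -0.99 (adjusted p = 0.000131). Again no mdx array reached the control range, and the highest mdx array, replicate 3 at 6556, lay below the lowest control array at 7822. Among all tested probe sets, 12.7% had every mdx array below every control array. After quantile normalization 103618_at was at only -0.17 (limma adjusted p = 0.0442) and 162015_f_at at -0.86 (limma adjusted p = 0.000419), both still called. That method gives every array the same set of values, so a probe set near the top of every array can change little. The call of 103618_at was lost when arrays were scaled to the hybridization controls (-0.12, adjusted p = 0.538) or to the fast fibre markers (-0.07, adjusted p = 0.674). That of 162015_f_at held with the former (-0.48, adjusted p = 0.0224) and not with the latter (-0.44, adjusted p = 0.11). Against the median of all tested probe sets, which both references raise, 103618_at stood at -0.40 and -0.38. On that measure 162015_f_at stood at -0.77 and -0.75. The remaining probe set, 161876_r_at, lay near 0 on all arrays.

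Ak1, the adenylate kinase of the muscle cytosol, followed the same direction. Its intensities were 27738, 27488, 27922, 23986 and 22085 in control. In mdx they were 17987, 15328, 18223, 14527 and 19535. Every mdx array was below every control array, and the mean fell to 0.662 of control. The log2 change was -0.59 (SE 0.10, limma adjusted p = 0.000702), or -0.28 after quantile normalization (limma adjusted p = 0.012). It was -0.06 and -0.01 with scaling to the hybridization controls and to the fast fibre markers, neither of them called (adjusted p = 0.733 and 0.961). Against the median of all tested probe sets, which both references raise, Ak1 stood at -0.34 and -0.32.

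Contractile genes of the fast fibre moved beside these 3 genes, and so did the hybridization controls of the arrays. As log2 deviations from the mean of all arrays, the hybridization controls ran from 0.03 to 0.37 on control arrays. On mdx arrays they ran from -0.50 to -0.00. Each deviation is the mean log2 of 18 control probe sets, with values below 1 set to 1 and no filter on brightness. How far dim ones among them set these deviations was not tested. The part of scaling in the shared fall was not tested. Of the 10 fast fibre markers 6 were called lower and 4 were not called, with a median log2 change of -0.54 against -0.04 over all tested genes. Their summed intensity ran from 217798 to 396970 on control arrays and from 171696 to 284223 on mdx arrays. Control replicate 5, with the lowest Ckm of its group, also had the lowest fast fibre markers, 0.24 below the mean of all arrays on the log2 scale. Likewise mdx replicate 5, with the highest Ckm of its group, stood 0.14 above that mean, the highest of the mdx arrays. Other arrays did not follow the markers in order. The lowest mdx markers were on replicate 4 (-0.60), but the lowest mdx Ckm was on replicate 2 (11793, against 12943 on replicate 4). The highest mdx Ckmt2 103618_at was on replicate 3 (25699), just above replicate 5 (25540). Relative to these markers none of the 3 genes was called changed by its brightest probe set, at an unadjusted p below 0.05 either. As the markers themselves had a median of -0.54, any gene with a like fall stands near 0 relative to them. The dimmer Ckmt2 probe set, 162015_f_at, stood at -0.44 (limma adjusted p = 0.11). The 7 slow fibre markers had a median of -1.0, with 5 called lower and 1 higher.

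**Figure D2:**
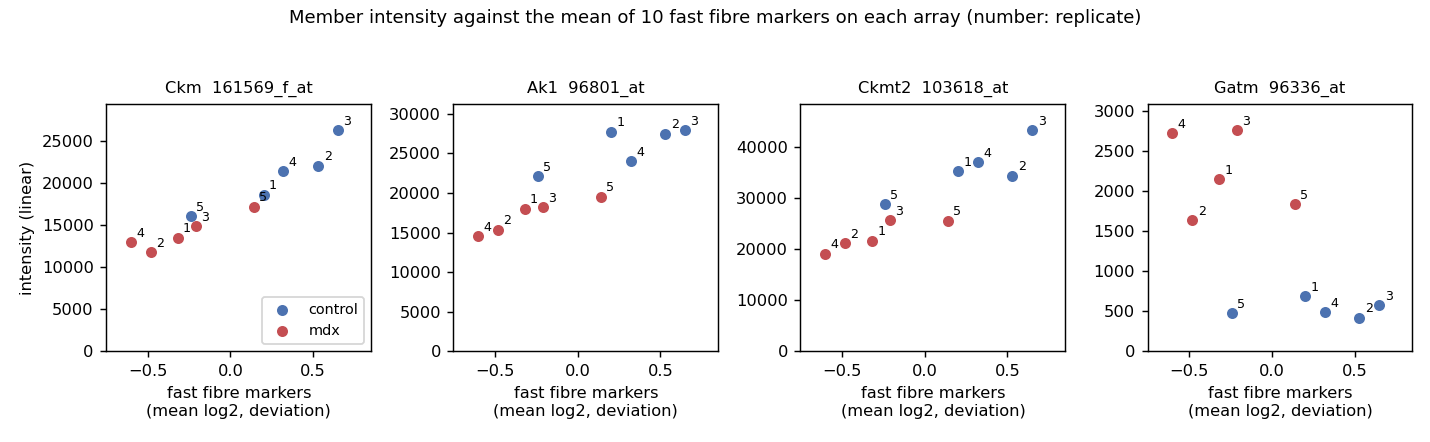
Intensity of Ckm, Ak1, Ckmt2 and Gatm (linear axes from 0) against the mean log2 intensity of 10 fast fibre markers on the same array, as the deviation from the mean of all 10 arrays. The control array with the lowest markers, replicate 5, also has the lowest Ckm, Ak1 and Ckmt2 of its group, while Gatm separates by group, with mdx arrays from 1636 to 2758 and control arrays from 421 to 685.

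Outside the members, the genes whose levels over the 10 arrays ran closest to Ckm were Uqcrq, a subunit of respiratory complex III (Pearson r = 0.990), Htt, huntingtin (r = 0.981), and Slc25a4, the muscle ATP exporter of mitochondria (r = 0.979). All 3 were called lower, at -0.59, -0.63 and -0.53. The arrays share the scaling and the group difference, so these correlations describe the 10 arrays and carry no test.

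The cytosolic subunit of brain and other tissues, Ckb, also made in immature muscle, did not pass the test. It read 3476, 3225, 2933, 2751 and 3140 in control. In mdx it read 2865, 3172, 2964, 3827 and 2730, and the ranges overlapped almost whole. Means were 3104.9 ± 277.6 and 3111.6 ± 431.4, with a 95% interval of the log2 change from -0.20 to 0.20 (adjusted p = 0.991). Scaling to the hybridization controls brought Ckb to a called rise of 0.48 (limma adjusted p = 0.0203), and scaling to the fast fibre markers to 0.52 (limma adjusted p = 0.0812). Both scalings also raise the median of all tested probe sets, and against that median Ckb stood at 0.19 and 0.21. The genes with the most similar course over the 10 arrays were Faf1, Gatad2a and Csnk1g2 (r = 0.875, 0.874 and 0.853), and none of them was called changed.

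A single scaling factor per array nearly cancels in the ratio of Ckb to Ckm on that array, but quantile normalization does not. The log2 ratio was 0.55 higher in mdx (SD 0.33 in each group, n = 5). The exact permutation p was 0.0397, two-sided, and 0.0794 after adjustment over the 4 ratios computed. These 4 include Ckmt1 over Ckmt2, which restates the fall of Ckmt2 and makes the adjusted p of Ckb over Ckm smaller. The ratios of the groups overlapped. Leaving out 1 array in turn gave adjusted p from 0.0476 to 0.175 by the exact permutation test. It was below 0.05 only without mdx replicate 5, where the difference was 0.66, and that adjustment also counts Ckmt1 over Ckmt2. After quantile normalization the difference was 0.34 and did not pass (exact permutation, adjusted p = 0.444). Neither Ckmt2 over Ckm (-0.10, adjusted p = 0.275) nor Ak1 over Ckm (-0.03, adjusted p = 0.754) passed the exact test.

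Ckmt1, the mitochondrial creatine kinase of non-sarcomeric tissues, was barely above the filter. Its brighter probe set read 108 to 293 in control and 119 to 197 in mdx and was not called (log2 change -0.07, adjusted p = 0.609; 0.10 with scaling to either reference), with 4 of 5 arrays of each group above the filter intensity of 134.2. The other was not tested. All its values lay below the offset of 372.4, so its log2 values hardly vary and its within-array ratio to Ckmt2 restates the fall of Ckmt2; no test of that ratio is reported.

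The largest change of the 9 genes was in creatine synthesis. Gatm, glycine amidinotransferase, which makes guanidinoacetate from arginine and glycine in the first step, gave 685, 421, 578, 488 and 473 in control. In mdx it gave 2143, 1636, 2758, 2717 and 1832. Every mdx array lay above every control array, and the mean rose 4.19-fold, from 529.2 ± 104.0 to 2217.3 ± 508.4. On the scale of log2(intensity + 372.4), which understates changes of dim genes, the change was 1.51 (SE 0.14, 95% interval 1.21 to 1.80, adjusted p = 3.45e-06). It was 1.78 with a smaller offset of 156.8, chosen after the data were seen, and 1.89 and 1.92 with scaling to the hybridization controls and the fast fibre markers. Against the median of all tested probe sets, which both references raise, Gatm stood at 1.60 and 1.61.

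Gamt, guanidinoacetate methyltransferase, which adds the methyl group that completes creatine, rose by both probe sets but to different extents. Probe set 101408_at read 1051, 848, 613, 728 and 945 in control. In mdx it read 2388, 2482, 2335, 2473 and 2877, a 3.0-fold rise of the mean with no overlap. The log2 change was 1.26 (SE 0.10, adjusted p = 1.77e-06). Probe set 161644_f_at, the brighter of the pair, rose 1.48-fold, from 1692.4 ± 180.7 to 2506.4 ± 266.7 (log2 change 0.48, adjusted p = 0.00119), also with no overlap. Among all tested probe sets, 12.3% had every mdx array above every control array. Both probe sets of Gamt and the one of Gatm kept their call and direction under every scaling run.

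The sequences just upstream of these genes are shown for 2 members that fell together and the 2 synthesis genes that rose. They are the 250 bases before the RefSeq start of each gene, written 5′ to 3′ on the gene's strand from assembly GRCm38.p6. They lie at chr7:19410844-19411093 on the plus strand for Ckm, chr13:91876886-91877135 on the minus strand for Ckmt2, chr2:122611278-122611527 on the minus strand for Gatm and chr10:80261013-80261262 on the minus strand for Gamt. Capitals mark every match, on either strand, to the E-box CANNTG, to TATAA or to the GC box GGGCGG.
Ckm: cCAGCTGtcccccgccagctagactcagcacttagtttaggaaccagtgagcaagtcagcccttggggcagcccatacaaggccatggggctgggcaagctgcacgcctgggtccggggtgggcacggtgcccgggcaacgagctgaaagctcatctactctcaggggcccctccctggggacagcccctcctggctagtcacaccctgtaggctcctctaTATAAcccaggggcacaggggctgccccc
Ckmt2: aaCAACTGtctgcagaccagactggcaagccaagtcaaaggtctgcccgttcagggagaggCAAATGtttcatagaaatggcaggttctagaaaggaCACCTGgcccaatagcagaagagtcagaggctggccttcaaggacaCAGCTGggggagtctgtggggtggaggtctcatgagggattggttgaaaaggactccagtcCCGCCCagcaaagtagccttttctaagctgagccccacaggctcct
Gatm: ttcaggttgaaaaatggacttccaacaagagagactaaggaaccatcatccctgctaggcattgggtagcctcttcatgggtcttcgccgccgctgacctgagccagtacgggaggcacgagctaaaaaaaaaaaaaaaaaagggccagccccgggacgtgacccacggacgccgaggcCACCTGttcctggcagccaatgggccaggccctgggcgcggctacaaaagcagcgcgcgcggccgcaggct
Gamt: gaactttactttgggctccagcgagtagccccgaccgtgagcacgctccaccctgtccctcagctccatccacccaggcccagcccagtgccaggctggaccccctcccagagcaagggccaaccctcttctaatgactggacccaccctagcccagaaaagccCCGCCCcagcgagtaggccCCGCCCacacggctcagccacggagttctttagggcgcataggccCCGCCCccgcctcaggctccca
The Ckm window held 1 E-box, 244 to 249 bases before the start, and 1 TATAA, 25 to 29 bases before it. The Ckmt2 window held 4 E-boxes and 1 GC box, the Gatm window 1 E-box, and the Gamt window 3 GC boxes. Of 32851 such windows, with 1 chromosome, repeated entries and shorter windows left out, 66.2% held an E-box, 22.8% TATAA and 32.7% a GC box. None of the 4 windows matched the MEF2 or CArG consensus, found in 1.69% and 1.47% of windows. A match is a description of these letters, not of binding, and the motifs were chosen after the expression values were known.

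The creatine transporter Slc6a8, which brings creatine into the fibre, was not called. It read 1879, 1774, 2173, 2347 and 1835 in control. In mdx it read 2277, 1410, 1578, 1825 and 1328, with replicate 1 the highest. The mean was 0.841 of control (log2 change -0.22, 95% interval -0.49 to 0.05, adjusted p = 0.194). Without mdx replicate 1 the change was -0.32 and was called (adjusted p = 0.0372), whereas scaling to the hybridization controls or the fast fibre markers turned it to 0.22 and 0.27, neither called. Its other probe set lay below 0 on most arrays.

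The AMP deaminase Ampd3, the form also found in red blood cells, rose. It read 409, 460, 543, 640 and 417 in control. In mdx it read 886, 882, 648, 727 and 840, so that the lowest mdx array only just passed the highest control array. The mean rose 1.61-fold, from 494.0 ± 97.5 to 796.5 ± 105.1 (log2 change 0.43, SE 0.10, adjusted p = 0.0056). Of the red blood cell markers, the globin Hba-a1 was lower in mdx, from 25470 to 12425 (log2 change -1.02, adjusted p = 0.000981). Alas2, the heme synthesis enzyme of red cells, was not called, and Slc4a1 and Epb42 were below the filter. The summed level of Hba-a1 and Alas2, nearly all of it Hba-a1, was 17512 to 31487 in control and 8957 to 15099 in mdx. The part of red blood cells in the level of Ampd3 was not tested.

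**Figure D3:**
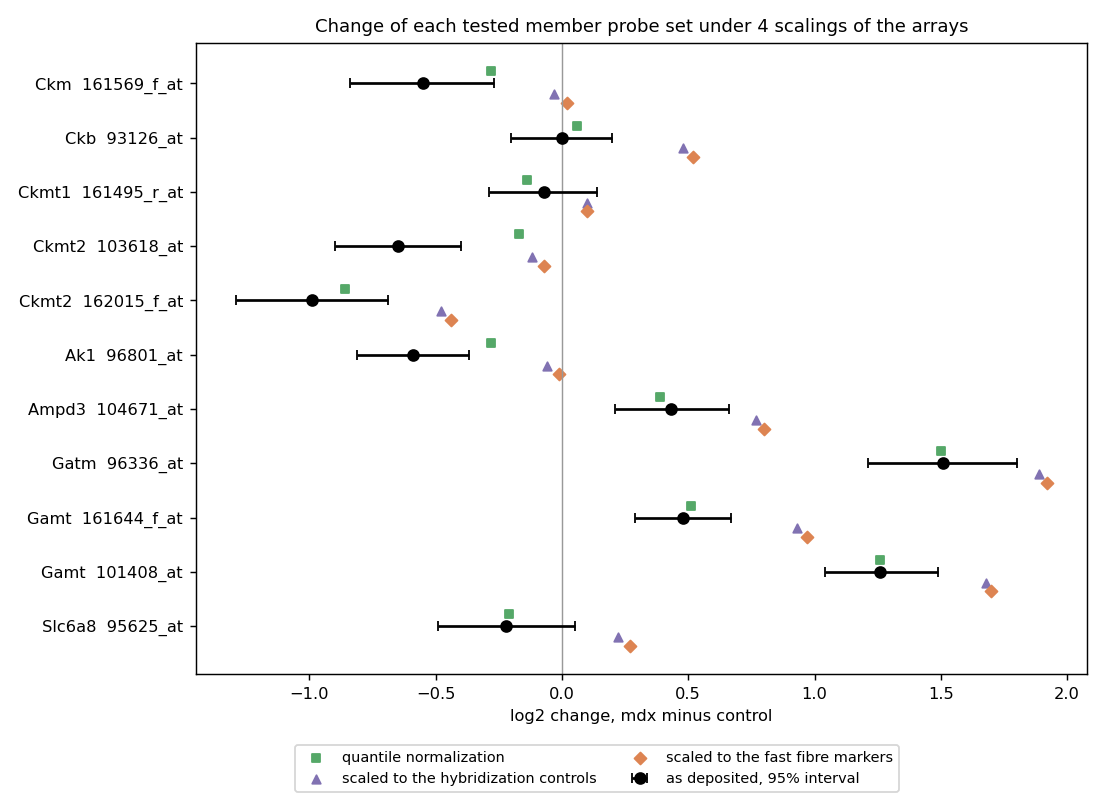
Log2 change of each tested probe set, mdx minus control, as deposited (black, with the 95% interval of the limma fit) and after 3 other scalings of the arrays (coloured marks). Ckm, Ak1 and Ckmt2 103618_at lie between -0.12 and 0.02 when scaled to the hybridization controls or the fast fibre markers, whereas Gatm, Gamt and Ampd3 stay above 0 throughout. These references also raise the median of all tested probe sets, by 0.32 and 0.35.

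Markers of other cells moved beside the rises of Gatm, Gamt and Ampd3. All 9 tested macrophage markers were higher, with a summed intensity of 3070 to 6032 in control and 46420 to 62212 in mdx; Itgam was below the filter. Of these, Lgals3 was above the filter on 0 control arrays and 5 mdx arrays, from 7565 to 11201, so it was tested only through its mdx values. Of 6 fibroblast markers 4 were higher and 2 lower, with sums of 39110 to 50559 and 64771 to 76504. These counts use the brightest probe set of each gene. Dimmer tested probe sets of Csf1r (0.01), Col1a1 (0.36, limma adjusted p = 0.0512) and Col1a2 (-0.06) were not called, while both dimmer ones of Col3a1 were higher. Of 8 markers of regenerating fibres 5 were higher and 3 not called, among them Myl4, the embryonic light chain, at 3.4, and the sums were 4617 to 5224 and 19030 to 28904. The part of these cells in the rises was not tested. For tissues rich in Ckb, 1 of 4 smooth muscle markers was higher (Acta2, 1.23) and 1 lower, and of 2 tested Schwann cell markers 1, Mbp, was lower by its brightest probe set (-0.72, adjusted p = 0.0414). The other Mbp probe set was higher with no overlap (0.44, adjusted p = 0.00561), so the probe sets disagree, and S100b and Mag were below the filter.

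Other genes of the pathway were read from 6 lists of 60 symbols, of which 36 had a probe set and 31 were tested. By brightest probe set 7 were called higher (22.6%), 11 lower (35.5%) and 13 not called, beside 16.1% and 18.6% of all tested genes. The shares depend on brightness. When only the 3990 probe sets above 372.4 on all arrays were tested, 616 were called higher and 1195 lower. The 7 include Nme4, which passed the filter through its mdx arrays alone and had to come out higher. Up to 4 genes of each list are named, those with the smallest p, and the lists were drawn up with earlier results known. Scaling to either reference, the hybridization controls or the fast fibre markers, raises the median of all tested probe sets by 0.32 or 0.35.

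Of 5 tested adenylate kinases and purine nucleotide cycle genes 1 was called higher, 1 lower and 3 not called. Adssl1, the adenylosuccinate synthetase of muscle, which acts on the IMP that AMP deaminase makes, fell from 16630, 16931, 15601, 15923 and 17288 in control to 7882, 8207, 8658, 10232 and 8405 in mdx. The groups were far apart, with a log2 change of -0.90 (SE 0.08, adjusted p = 2.51e-06), though it was no longer called with scaling to the hybridization controls (-0.38, adjusted p = 0.0549) or the fast fibre markers (-0.33, adjusted p = 0.192). Against the median of all tested probe sets Adssl1 then stood at -0.67 and -0.65. Adss, the synthetase of other tissues, rose by both probe sets, at 0.41 (adjusted p = 0.00195) and 0.45 (adjusted p = 0.00921), each with no overlap. Adsl, the lyase that completes the cycle, was not called (-0.25, adjusted p = 0.0709; 0.23 and 0.27 with the same 2 scalings), nor was the mitochondrial adenylate kinase Ak4 (-0.29, adjusted p = 0.276).

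Of 5 tested genes of mitochondrial transport 1 was called higher and 4 lower. Slc25a4, the muscle form of the ADP and ATP exchanger, had a mean of 38609 in control and 26603 in mdx (log2 change -0.53, adjusted p = 0.00659), with mdx replicate 5 above control replicate 5. That fall was absent after quantile normalization (-0.01), which leaves little room for change in a probe set near the top of every array. It turned to 0.01 and 0.05 with scaling to the hybridization controls and the fast fibre markers. Against the median of all tested probe sets these values were -0.28 and -0.26. The fall depends on the scaling. Slc25a5, the form of dividing and non-muscle cells, went from 824, 980, 1494, 966 and 1377 to 2405, 3702, 2657, 3868 and 4034 by its brightest probe set. This was a log2 change of 1.30 (SE 0.16, adjusted p = 4.85e-05) with no overlap, while its other 2 probe sets gave 0.31, called, and 0.45, not called (adjusted p = 0.217). The phosphate carrier Slc25a3 fell by 0.63 and the outer membrane porin Vdac3 by 0.68; of these, Vdac3 lost its call with both other references and Slc25a3 only with the fast fibre markers. The remaining gene called lower, Vdac2, lies outside the naming rule (-0.39, adjusted p = 0.0272). Its call was lost under every other scaling run: equal trimmed means (-0.36, adjusted p = 0.0503), quantile normalization (-0.34, adjusted p = 0.0748) and both references (0.08 and 0.12).

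In purine salvage and breakdown, Pnp, purine nucleoside phosphorylase, which cleaves inosine and guanosine, rose the most. It read 761, 544, 500, 830 and 500 in control and 1945, 2601, 1946, 2070 and 2446 in mdx, with no overlap (log2 change 1.37, SE 0.12, adjusted p = 2.55e-06). Entpd1, which breaks down ATP outside cells and is made by endothelium and leukocytes, rose by 0.48 (adjusted p = 0.0152), and Hprt, which salvages hypoxanthine and guanine, by 0.26 (adjusted p = 0.0385). Adk, which turns adenosine back to AMP, fell from 4399.1 ± 117.3 to 2694.1 ± 401.1 (log2 change -0.65, adjusted p = 0.000123), but with scaling to the hybridization controls it stood at -0.16 and was not called. Its dimmer tested probe set was at -0.38 and was not called (adjusted p = 0.0551).

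Of the kinase cascade that senses AMP, 3 genes were tested. Stk11, the kinase LKB1 that activates it, fell from 1365.7 ± 153.2 to 721.6 ± 29.8 (log2 change -0.66, adjusted p = 4.77e-05), and Cab39, its scaffold, from 4111.0 to 2714.1 (-0.53, adjusted p = 0.00136). Neither group pair overlapped, and both calls were lost with either of the 2 other references (-0.27 and -0.24 for Stk11, -0.05 and -0.01 for Cab39). Relative to the median of all tested probe sets, Stk11 then stood at -0.56 and -0.55, and Cab39 at -0.33 and -0.32. Prkab1, a regulatory subunit of the AMP-activated kinase, was not called (0.17, limma adjusted p = 0.34) as deposited and was called higher with both. Against the median of all tested probe sets it then stood at 0.11 and 0.12.

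Among genes that supply creatine synthesis, Oat, ornithine aminotransferase, fell by 0.56 (adjusted p = 0.000145; -0.07 and -0.03 with those references), while its dimmer tested probe set was at 0.06 (adjusted p = 0.737). Mat2b and Ahcy, of the methyl donor cycle, were not called, at -0.13 and -0.14, and stood at 0.34 and 0.38 and at 0.29 and 0.32 with the other references. Got2 was called higher at 1.27 by a probe set that was below 0 on 2 of 5 control arrays and ran from 259 to 1972 in mdx, while its other probe set lay near 0.

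Of the nucleoside diphosphate kinases, which pass phosphate from ATP to other nucleotides, Nme2 fell by 0.25 (limma adjusted p = 0.0218) and Nme6 by 0.60 (limma adjusted p = 0.000419). With the 2 other references neither was called, at 0.27 and 0.32 for Nme2 and -0.25 and -0.23 for Nme6. The fall of Nme2 was also absent after quantile normalization (-0.02, limma adjusted p = 0.848). Nme1 was not called as deposited (0.23, limma adjusted p = 0.329) and was called higher with both references (0.53, adjusted p = 0.0259, and 0.57, adjusted p = 0.00831). Against the median of all tested probe sets it then stood at 0.24 and 0.26. Nme4 was below the filter on all 5 control arrays and above it on all 5 mdx arrays, from 186 to 242. It was tested only because of its mdx values and had to differ.

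**Figure D4:**
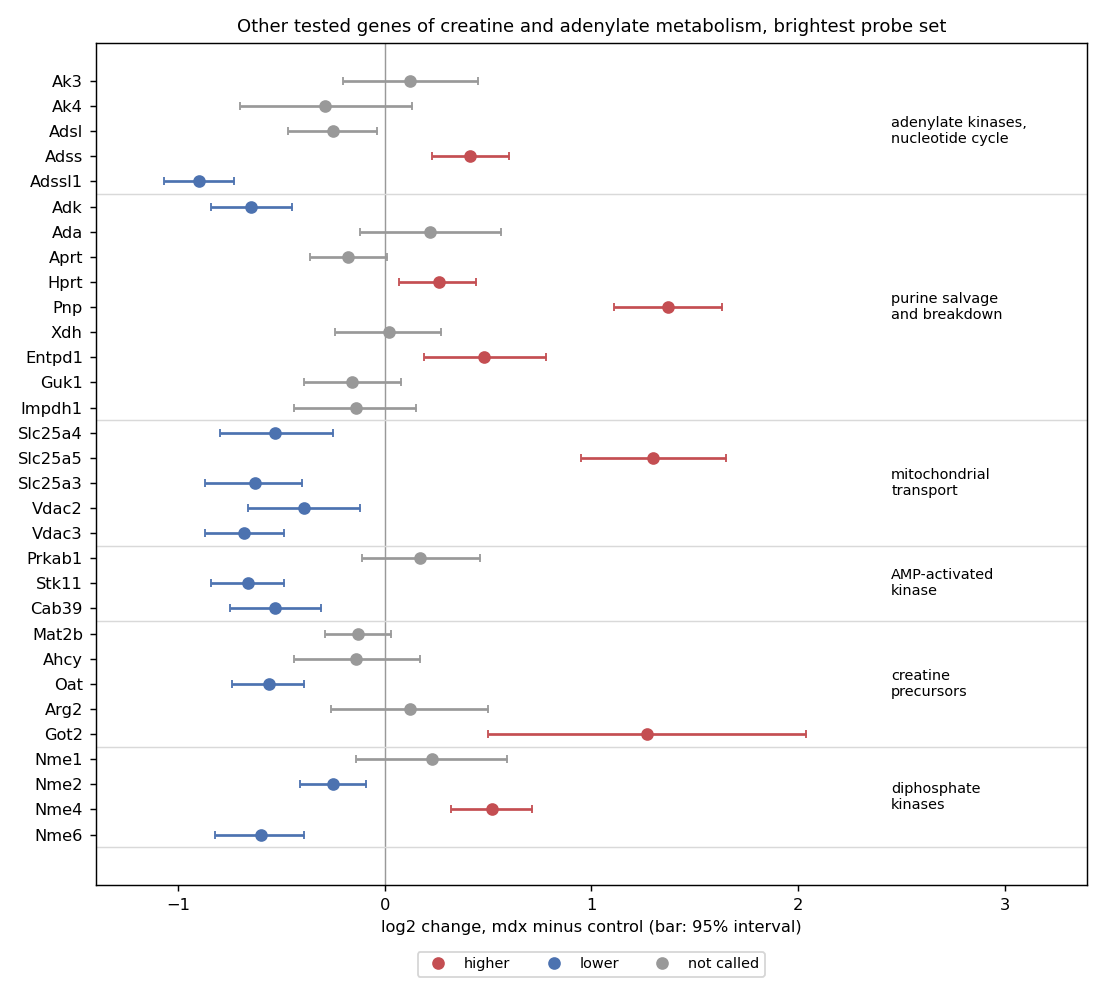
Log2 change, mdx minus control, of the 31 tested pathway genes by their brightest probe set, with the 95% interval of the limma fit; red marks genes called higher, blue lower and grey not called. Adss and Adssl1, and Slc25a5 and Slc25a4, lie on opposite sides of 0 on the deposited scale.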

How the data were processed

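The deposited table held probe set intensities on a linear scale. The authors' software, background correction and scaling are not given in the sources used here. Trimmed means (2% from each end) of 800.7 to 800.9 on 9 arrays and 723.1 on mdx replicate 1, and 19.7% to 23.8% of values below 0, are what scaled and background-subtracted values would give, but no source states either step. Very bright probe sets may be compressed by the scanner, which was not tested. The number of arrays limits the precision.

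Values below 0 were replaced by 0 before taking log2(intensity + 372.4), the offset being the root mean square of the 27659 values below 0. Values far below 0 (lowest -7609) enlarge it, so an offset of 156.8 from their median was added after seeing the data. Probe sets above 134.2, the 40th percentile, on at least 5 of 10 arrays were tested (7612, controls left out) with limma 3.58.1 in R 4.3.3 (variance trend, two-sided). The script was tested on simulated data. Genes came from the platform annotation, which can be old. It gives 1 gene to 10833 probe sets, several to 396 and none to 1193; those with several named nothing. Gene numbers were matched to RefSeq's table (GRCm38.p6), which changed 0 symbols. The brightest tested probe set represents a gene. Named genes are all members, Dmd, up to 4 genes per pathway list with the smallest p, and the 3 genes most correlated with Ckm and with Ckb. Promoter windows matched 8 of the 9 member genes. Members, lists and markers were chosen with earlier results of these data known. The alternatives were other offsets, filters, scalings, variance models, a replicate block and leaving out each array. Quantile normalization gives every array the same set of values, so it can shrink changes shared by the brightest probe sets.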

Additional observations from a re-analysis of the deposited data

Results flagged for a closer look

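In 4 of the 68 groups of 5 arrays examined for the named genes, 1 array lay apart from the other 4 by a gap over 0.71 of the group's range, a limit that chance passes in about 1 of 20 groups. Gamt 101408_at stood at 2877 on mdx replicate 5, against 2335 to 2482 on the other mdx arrays. The brightest probe set of Ahcy stood at 878 on control replicate 1, against 1496 to 1711. Nme6 stood at 822 on control replicate 3, against 1003 to 1034, and at 354 on mdx replicate 1, against 539 to 585. Leaving out the array that stood apart did not end the call of Gamt.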

How the results depend on the processing

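Of 209 values of 10 tested member probe sets under alternatives, 197 kept both direction and call; Ckb, at about 0, has no direction to keep and is left out. The offsets, filters, variance model, equal trimmed means and replicate block ended no member's call; scaling did. Genes called lower among the members numbered 0 with scaling to the hybridization controls and 0 to the fast fibre markers (limma; also 0 at an unadjusted p below 0.05), against 3, and pathway genes called lower numbered 1 and 0 (2 and 1 unadjusted), against 11. These 2 scalings move the median probe set by 0.32 and 0.35, and signs turned for Ckmt1 (0.10 and 0.10), Slc6a8 (0.22 and 0.27) and, with the second, Ckm (0.02). Against the median none turned: Ckmt1 was at -0.19 and -0.21, Slc6a8 at -0.06 and -0.05 and Ckm at -0.31 and -0.29. Pathway genes called higher numbered 4, against 7, when only probe sets above 372.4 on all arrays were tested, a filter that leaves 3990. After quantile normalization the ratios of Ckb to Ckm, Ckmt2 to Ckm, Ak1 to Ckm and Ckmt1 to Ckmt2 were 0.34, 0.11, 0.01 and 0.03. The last ratio, 0.57 as deposited, restates the fall of Ckmt2 and was 0.55 and 0.54 with offsets of 186.2 and 156.8. Leaving out 1 array in turn gave 3 to 4 member genes called lower and 3 higher, pathway counts of 9 to 12 lower and 6 to 7 higher, 2269 to 2483 calls over all probe sets against 2554, and ratios of 0.45 to 0.66 for Ckb over Ckm, 0.48 to 0.66 for Ckmt1 over Ckmt2, -0.13 to -0.06 for Ckmt2 over Ckm and -0.09 to 0.03 for Ak1 over Ckm. The cause was not tested. Replicate numbers did not pair the arrays: deviations of same-numbered arrays correlated at -0.160 to 0.044, and with the replicate block 1088 probe sets were called higher and 1150 lower, with 3 member genes each way.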
